A study of Mus musculus with 6 samples.

Results

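The comparison described here sets the infused side of the brain against the opposite, contralateral side in captured substantia nigra of mice that had received Engrailed 2 (En2) protein. Its members are the 2 captured libraries of the infusion experiment, of 6 samples in the series, chosen by their labels alone. Both sides come from wild type mice aged 8 weeks in which an osmotic pump had delivered the protein to one side of the brain for 7 days. The other samples are captured nigra of wild type and of En1+/- mice, both aged 6 weeks and both without infusion, and nigral punches of wild type mice aged 8 weeks that had received 6-hydroxydopamine (6-OHDA, which enters and kills dopaminergic neurons) followed by vehicle or by En2. En1+/- mice lack one working copy of Engrailed 1. In all 4 captured samples, neurons stained for tyrosine hydroxylase in the substantia nigra pars compacta (SNpc) were cut out with a laser. The contralateral side belongs to operated mice and is not a sham control. Neither the strain nor the number of mice per sample is given in the sources used here, and no library of an infusion without En2 was analysed here.

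Engrailed proteins are homeodomain transcription factors that midbrain dopaminergic neurons keep making in adult life and need for their survival. They can leave one cell and enter another, where they act on transcription and on translation, which is why protein infused from outside can reach neurons. Dopaminergic neurons of the SNpc make dopamine with tyrosine hydroxylase and dopa decarboxylase, fire on their own with the help of a set of ion channels, and are the neurons lost in Parkinson disease. Around them lie astrocytes, microglia and oligodendrocytes, which change their gene expression when brain tissue is injured or inflamed. The comparison addresses which transcripts differ between a nigra that received Engrailed protein and the nigra of the opposite side.

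Genes of reactive astrocytes, microglia, complement, interferon signalling and antigen presentation stood higher on the infused side, while most genes that define dopaminergic neurons differed by less than 2-fold. Some genes belong to more than 1 of these groups and count in each. Single receptor genes for glutamate and GABA, channel genes and genes of protein folding in the endoplasmic reticulum were lower, at shares of their lists near those of all genes. With 1 library per side there is no replicate, no test of significance was made, and all differences below are between these libraries. Ranges in parentheses are exact 95% counting intervals, and they cover counting error alone, because reads are not independent molecules. In tissue of several cell types, more cells of a type cannot be told apart from more RNA per cell.

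Each gene was represented by its most-read transcript over the 4 captured libraries. The pair was scaled by the median of ratios, and 0.5 was added before log2 ratios of infused over contralateral were taken. Levels over the 4 captured libraries are always in the order wild type, En1+/-, contralateral and infused. They are given as scaled reads or, where the text says reads alone, as unscaled counts. Unscaled counts also carry library depth, with size factors of 0.75, 1.51, 0.92 and 1.03. Scaled reads were scaled over all 4 libraries, so that their quotients differ slightly from the pair's ratios. Counts over transcripts summed to 18081543 on the contralateral and 16330774 on the infused side. The mitochondrial ribosomal RNA genes mt-Rnr1 and mt-Rnr2 took 71.6% and 62.4% of them, against 74.4% in wild type and 58.5% in En1+/-. Of 35049 genes, 17756 had any read in the pair and 7272 (41.0% of those) had 100 or more reads, the minimum used below.

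The neurons that the labels name were present on both sides. The 30 genes of a dopaminergic list summed to 25997, 26042, 28069 and 32527 scaled reads, so that the infused side was the highest of the 4 captured libraries. Th, which encodes tyrosine hydroxylase, had 1814, 1623, 1667 and 2028 scaled reads, with a log2 ratio of 0.27 (0.17 to 0.36). Slc6a3, the dopamine transporter gene, had 5751, 5811, 7046 and 8302, and its log2 ratio was 0.22 (0.17 to 0.27). RNA of other cells was present as well. The 24 genes of mature oligodendrocytes summed to 66221, 60380, 45889 and 51025 scaled reads, and the 17 genes of GABAergic neurons to 5090, 7324, 4460 and 5003. Ratios therefore describe the captured tissue and cannot be assigned to dopaminergic neurons alone.

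Engrailed transcripts themselves went in different directions, and neither had many reads. En1 (chr1:120602418-120607992, plus strand, GRCm38) had 103, 31.2, 82.3 and 132 scaled reads, with a log2 ratio of 0.66 (0.25 to 1.09) from 76 and 136 reads. The En1+/- library was the lowest of the 4 for En1, as its genotype label says, and the infused library the highest. En2 (chr5:28165694-28172166, plus strand) had 62 reads on the contralateral and 31 on the infused side, fewer than the minimum, and a log2 ratio of -1.16 (-1.84 to -0.53). These counts measure the animals' own transcripts and not the infused protein. The deposited tables of this pair name En1 where the labels name En2 as the infused protein, and the labels were followed.

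By a rule of size, a gene counted as higher or lower when it had 100 or more reads in the pair, a log2 ratio beyond 1 or -1 and a counting interval that excluded 0. The rule found 1201 of 7272 genes higher on the infused side (16.5%) and 680 lower (9.35%), 25.9% in all. As a yardstick, the rule was applied to captured libraries taken from nigra that had not been infused. The same rule found 15.5% of 6548 genes in the contralateral library against wild type (8.46% higher and 7.04% lower), and 25.1% of 7774 genes in En1+/- against wild type (17.6% higher and 7.54% lower). These pairs also held many genes past the rule, and they differ in age or genotype. In the infused pair 63.8% of the genes past the rule were higher, or 86.2% if library totals set the scale.

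The minimum of 100 reads is set by the pair itself, so a gene with few reads on one side could enter only by being high on the other. Of the 1201 higher genes, 81 had 10 or fewer reads on the contralateral side and 11 of them had 0, while 12 of the 680 lower genes had 10 or fewer on the infused side and 1 had 0. A minimum that the pair does not set, 100 or more reads in wild type and En1+/- together, gave 949 of 7766 genes higher (12.2%) and 1084 lower (14.0%). The share of higher genes among those past the rule was 63.8% with the first minimum and 46.7% with the second. For this reason the gene lists below are also given by the second minimum, and many by the summed scaled reads of all their members, low ones included. Counts of list members are to be read against the 16.5% and 9.35% of all measured genes. Those by the second minimum are to be read against its own 12.2% higher and 14.0% lower. Lists can share members, and a shared gene counts in each list. C5ar1 counts under activated microglia and under complement, and Cd74 under activated microglia and under antigen presentation.

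**Figure D1:**
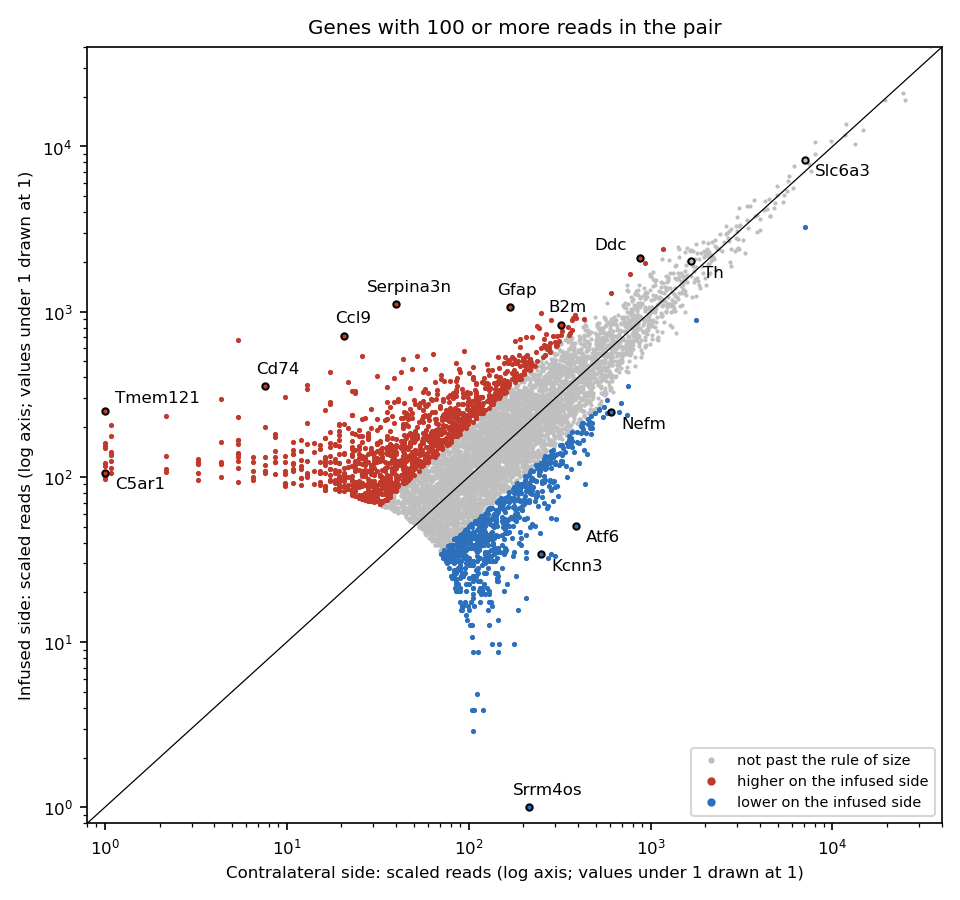
Scaled reads of the contralateral side (x axis) and the infused side (y axis) for the 7272 genes with 100 or more reads in the pair, both on log axes, with values under 1 drawn at 1. Red points are the 1201 genes higher and blue points the 680 genes lower on the infused side by the rule of size. Serpina3n, Ccl9 and Cd74 lie far above the diagonal, Srrm4os, Kcnn3 and Atf6 far below it, and Th and Slc6a3 close to it.

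The other captured libraries show on which side of the pair a gene stood apart. Among the 1201 higher genes, the infused library was above all 3 others in 1049 (87.3%), against 2740 of the 7272 measured genes (37.7%). Among the 680 lower genes, it was below all 3 others in 522 (76.8%), against 1627 of the measured genes (22.4%). In these sets the ratio itself fixes the infused library above or below the contralateral one, so only the order against wild type and En1+/- was free. Over all measured genes, the infused library was more than 2-fold above each other library in 633 genes, the En1+/- library in 190, the contralateral library in 84 and the wild type library in 25. The minimum favours this order, since a gene high only in the infused library could enter by its height there and one high only in wild type or En1+/- could not. Below each other library by more than 2-fold, the En1+/- library had the most genes with 519, and the infused library had 230, wild type 222 and contralateral 155.

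Reactive astrocyte genes gave the largest difference of any list by summed reads. The 40 genes found of this list summed to 601, 690, 702 and 3006 scaled reads, 4.28-fold higher on the infused than on the contralateral side, and Serpina3n and Gfap made up most of that sum. Serpina3n (chr12:104406729-104414329, plus strand), which encodes a secreted protease inhibitor that astrocytes make after injury, had 81.4, 170, 40.1 and 1106 scaled reads and was 26.9-fold higher (19.7 to 38.9). Gfap (chr11:102887336-102900912, minus strand), the gene of the intermediate filament that marks astrocytes, had 112, 77.6, 168 and 1062 scaled reads and was 6.24-fold higher (5.28 to 7.45). In both genes the infused library was far above a range that the other 3 libraries shared.

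Of the other reactive astrocyte genes few could be measured. Osmr, the oncostatin M receptor, was 4.49-fold higher (2.78 to 7.92), and Stat3, a transcription factor that this receptor activates, was 2.16-fold higher (1.69 to 2.79). The Stat3 ratio was 0.69 on the log2 scale when all transcripts of the gene were summed, which is under the rule. These 4 genes were all the members with 100 reads, and by the minimum the pair does not set 3 of 4 were higher and none lower. With all transcripts of each gene summed, 7 members could be measured, of which 3 were higher and none lower, and the median log2 ratio was 0.98 in place of 2.40. Other genes known from reactive astrocytes were near 0. Lcn2 had 0 and 3 reads, Vim 19 and 11, and Cd44, Hspb1, Ptx3, Ptgs2 and Emp1 had 0 on the infused side.

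In a homeostatic astrocyte list 1 of 21 measured members was higher and 2 were lower, with a median log2 ratio of -0.07 beside 0.11 over all measured genes. With the second minimum, 1 of 23 was higher and 3 were lower. Their sums were 27213, 31165, 30137 and 31726 scaled reads. Aqp4, the water channel of astrocyte endfeet, had 999.8, 796, 1153 and 2076 scaled reads and a log2 ratio of 0.83 (0.72 to 0.94), under the rule. Sox9, a transcription factor of astrocytes, was 2.37-fold higher (1.86 to 3.06). Slc7a10, which carries small neutral amino acids in astrocytes, had 85.4, 469, 259 and 69.1 scaled reads and a log2 ratio of -1.92 (-2.33 to -1.54). Gjb6, the connexin 30 gap junction gene, had 262, 431.5, 164 and 45.7 scaled reads and a log2 ratio of -1.84 (-2.36 to -1.38). The infused library was the lowest of the 4 for both of these genes, though for Slc7a10 the wild type library was close to it. Glutamate transporter transcripts were at similar levels on both sides, with log2 ratios of 0.12 (0.08 to 0.16) for Slc1a2 and -0.18 (-0.33 to -0.03) for Slc1a3.

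Microglial activation genes had the highest share of members with more reads on the infused side of all 48 lists. In a list of activated microglia and macrophages, 41 of 48 members with any read (85.4%) had more scaled reads on the infused side, against 46.5% of all 17756 genes with a read. The 53 genes found summed to 5578, 6623, 5064 and 9745 scaled reads. Of 18 measured members 11 were higher and 1 was lower, and by the second minimum 4 of 9 were higher and 1 lower. Cd74, the invariant chain that guides MHC class II molecules, had 13.3, 33.1, 7.58 and 353 scaled reads and was 43.2-fold higher (22.1 to 115). Laptm5, a lysosomal membrane gene of immune cells, had 30, 54, 60 and 387 reads, and Itgam, which encodes the CD11b integrin chain of microglia, had 140.2, 77.6, 86.7 and 356 scaled reads. The infused library was the highest of the 4 in all of these.

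Further members with similar order were the surface receptor gene Cd84 (log2 ratio 4.01, 3.01 to 5.44), the actin bundling gene Lcp1 (3.40, 2.49 to 4.63) and the lysosomal protease gene Ctsz (2.68, 2.10 to 3.35). C5ar1, the receptor for the complement fragment C5a, had 0 reads in each of the other 3 captured libraries and 109 on the infused side, at least 25.8-fold higher by the lower end of its interval and 32.2-fold over a floor of 3 contralateral reads. Cd14, a receptor for bacterial lipopolysaccharide, had 6, 1, 1 and 90 reads, under the minimum. The one lower member was Axl, a receptor by which phagocytes take up dying cells, at -1.08 (-1.51 to -0.66). Axl fell under the rule at -0.66 with library totals and at -0.90 with all transcripts summed. Itgb2, the partner chain of Itgam, had 42 and 10 reads, also under the minimum. Known activation markers Lyz1, Cst7, Ncf4 and Msr1 had 0 reads on both sides.

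Homeostatic microglia genes held higher members as well, at a smaller share. Their 15 genes summed to 1181, 1348, 1027 and 1677 scaled reads, with 3 of 9 measured members (33.3%, against 16.5% of all measured genes) higher and none lower, and a median log2 ratio of 0.63. The second minimum gave 2 of 6 higher and none lower. Sall1, a transcription factor of resting microglia, was 6.01-fold higher (4.11 to 9.33), and Selplg, an adhesion ligand, had a log2 ratio of 3.09 (2.38 to 3.96). Cx3cr1, the fractalkine receptor, had a log2 ratio of 0.26 (-0.13 to 0.66) and P2ry12 one of -0.38 (-0.86 to 0.10), both under the rule.

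Complement genes, which label material for removal by phagocytes, were higher in 7 of 10 measured members and lower in 1. They summed to 1633, 1999.9, 1846 and 2928 scaled reads. By the second minimum 4 of 8 were higher and 1 was lower. C1qa, C1qb and C1qc encode the chains of C1q, the starting molecule of the classical pathway. Their scaled reads were 10.7, 51.0, 56.3 and 216 for C1qa, 49.4, 74.9, 191 and 389 for C1qb, and 125.5, 164, 50.9 and 275 for C1qc. The infused library was the highest for each chain, and the log2 ratios were 1.91 (1.48 to 2.39), 1.01 (0.75 to 1.28) and 2.41 (1.97 to 2.90). C1qb passed the rule narrowly, with 0.92 when reads were scaled by totals outside mitochondrial and ribosomal RNA genes.

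Further along the cascade, C4b, whose product C1 cleaves, had 5.34, 0, 5.42 and 132 scaled reads and was 22.1-fold higher (10.1 to 75.5). The C4b gene has a close copy in the mouse genome, and the sources used here do not say how reads were shared between copies. Masp2, a protease of the lectin pathway, was the lower member at -2.57 (-3.37 to -1.91). Among Fc receptor and phagocytosis genes, 4 of 9 measured members were higher and 1 was lower, and 2 and 1 of 8 by the second minimum. They included the signalling kinase gene Syk at 2.24 (1.64 to 2.94) and the adaptor gene Lat2 at 3.95 (3.01 to 5.27), while Gas6, a ligand of Axl, was lower at -1.70 (-2.42 to -1.06).

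**Figure D2:**
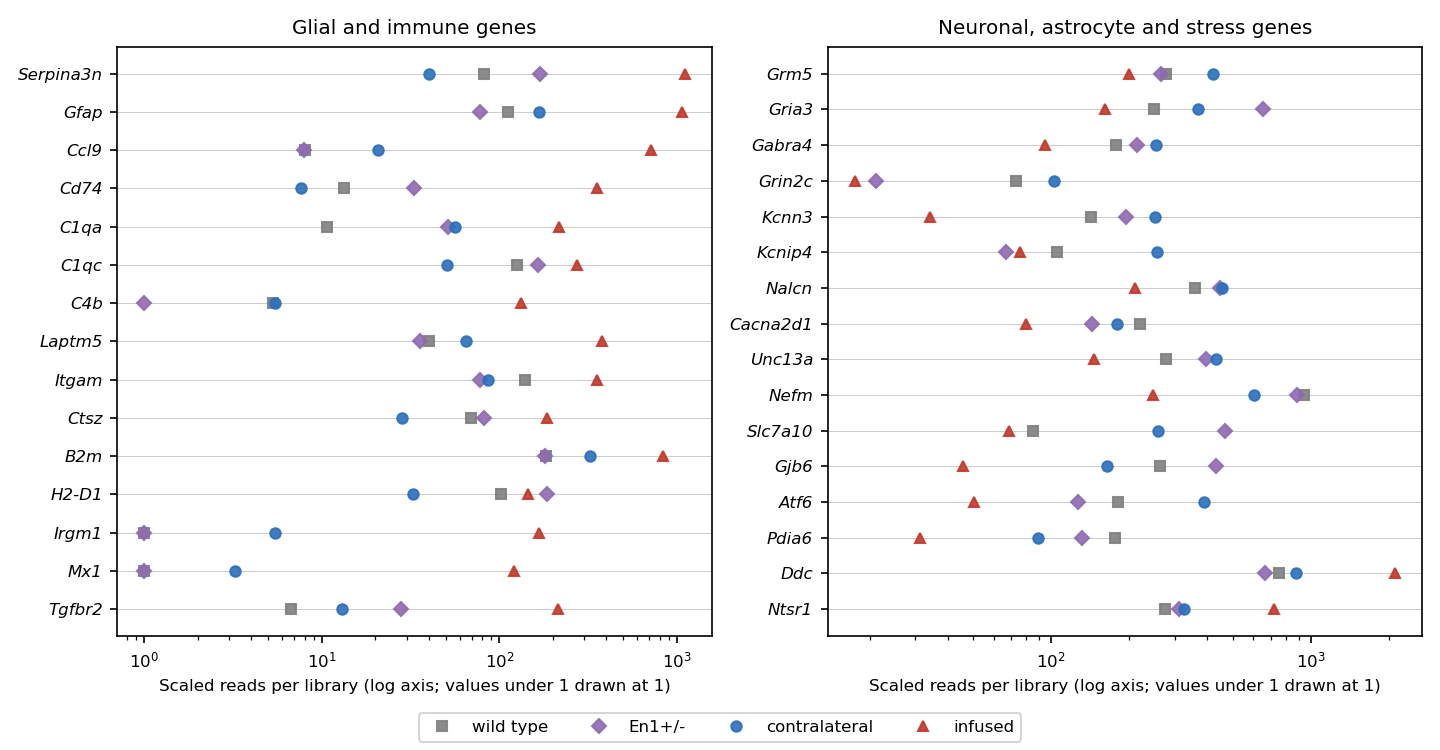
Scaled reads in the 4 captured libraries (x axis, log scale, values under 1 drawn at 1) for glial and immune genes on the left and neuronal, astrocyte and stress genes on the right. Each symbol is 1 library: squares wild type, diamonds En1+/-, circles contralateral and triangles infused. For Serpina3n and Gfap the infused library stands at 1106 and 1062 scaled reads, far above the other 3 libraries, whereas for H2-D1 the En1+/- library stands higher, and for Grm5 and Kcnn3 the infused library is the lowest.

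Interferon-response genes were another group with higher members. The 66 genes found of this list summed to 1193, 1294, 1294 and 2510 scaled reads. Of 57 members with any read, 37 (64.9%) had more scaled reads on the infused side. The rule found 9 of 15 measured members higher and 1 lower, and the second minimum 4 of 9 and 1. Irgm1, a GTPase gene that interferon gamma induces and that acts against intracellular microbes, had 0, 0, 5 and 172 reads, which is 28.0-fold higher (12.8 to 95.2). Mx1, an antiviral GTPase gene, had 0, 0, 3 and 124 reads, a linear ratio of 31.8 (12.3 to 180). Gbp7, of the guanylate-binding family, was 9.62-fold higher (5.26 to 21.5) with 3, 21, 10 and 113 reads. For these 3 genes the infused library was the highest by a wide margin.

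Signalling components of the interferon pathway were less clearly set apart. Irf9, a transcription factor of the type I response, had 4.00, 84.8, 29.3 and 93.4 scaled reads and a log2 ratio of 1.64 (1.03 to 2.33), with En1+/- close to the infused library. Oasl2, related to the oligoadenylate synthetases, was 3.82-fold higher (2.40 to 6.58), but its log2 ratio was 0.86 with all transcripts summed. Ifnar1, a receptor chain for type I interferon, was lower at -1.87 (-2.47 to -1.34). Typical interferon-induced genes were near 0 on both sides, with 0 and 0 reads for Isg15, 0 and 4 for Rsad2 and 4 and 11 for Ifit1. Irf7, Oas1a, Oas3, Dhx58 and Zbp1 had 0 reads on the infused side.

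The promoters of 4 of the higher genes are shown, chosen because among the genes looked up only these held a match to the patterns below. Promoters of the higher genes Oasl2, Irf9, Parp12, Serpina3n, Osmr, Ddc, Ntsr1, Six4, Ccl9 and C5ar1 held no match. The lower gene Kcnn3 held none either. Each sequence runs from 250 bases before to 50 bases after the annotated start, 5′ to 3′ on the gene's strand, from RefSeq on GRCm38.p6. Capitals mark matches to GAAA repeated after a gap of 2 bases (the GAAA pair), a spacing seen in interferon-stimulated response elements, to TTCNNNGAA, a spacing bound by STAT proteins, or to TAATTA, a core bound by homeodomains such as that of Engrailed. Both strands were searched, and matches may overlap.
Irgm1 (chr11:48871371-48871670, minus strand): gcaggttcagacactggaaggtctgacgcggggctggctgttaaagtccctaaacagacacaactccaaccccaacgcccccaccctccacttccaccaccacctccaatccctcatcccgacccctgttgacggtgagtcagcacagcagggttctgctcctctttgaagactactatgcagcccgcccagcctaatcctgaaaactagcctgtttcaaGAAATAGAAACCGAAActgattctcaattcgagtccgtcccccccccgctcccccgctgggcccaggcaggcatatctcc
Gbp7 (chr3:142530086-142530385, plus strand): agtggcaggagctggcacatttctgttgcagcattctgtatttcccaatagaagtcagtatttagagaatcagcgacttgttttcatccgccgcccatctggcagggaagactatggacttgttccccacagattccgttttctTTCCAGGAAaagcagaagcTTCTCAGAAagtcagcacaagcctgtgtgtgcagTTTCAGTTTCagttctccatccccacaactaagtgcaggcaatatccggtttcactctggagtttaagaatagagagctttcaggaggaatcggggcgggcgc
Gfap (chr11:102897151-102897450, minus strand): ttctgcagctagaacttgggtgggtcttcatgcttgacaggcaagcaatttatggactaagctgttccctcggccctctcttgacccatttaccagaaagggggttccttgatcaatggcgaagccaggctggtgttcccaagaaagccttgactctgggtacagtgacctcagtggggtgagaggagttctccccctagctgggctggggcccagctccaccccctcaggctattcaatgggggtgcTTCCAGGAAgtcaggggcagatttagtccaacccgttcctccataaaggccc
Stat3 (chr11:100939491-100939790, minus strand): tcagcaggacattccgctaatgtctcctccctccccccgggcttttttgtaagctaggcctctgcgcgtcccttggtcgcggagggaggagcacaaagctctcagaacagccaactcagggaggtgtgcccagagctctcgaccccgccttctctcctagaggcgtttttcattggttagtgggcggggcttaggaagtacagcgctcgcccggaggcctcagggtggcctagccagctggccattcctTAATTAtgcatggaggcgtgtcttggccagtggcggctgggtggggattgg
Irgm1 holds 2 overlapping matches to the GAAA pair, shortly before the start. Gbp7 holds 1 match to it on the other strand and 2 to TTCNNNGAA. Gfap holds 1 match to TTCNNNGAA and Stat3 1 match to TAATTA, both next to the start.

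Across all 32851 promoters in the table (27025 genes), 3.44% held the GAAA pair, 8.30% TTCNNNGAA and 5.29% TAATTA. Among promoters of the interferon list 45.8% held the GAAA pair, 27 of 59, whichever way their genes stood, and 25.0% of those of its higher members, 2 of 8. Among promoters of all genes higher on the infused side the shares were 3.31%, 7.02% and 2.58%, and among lower genes 2.99%, 5.99% and 2.40%. Over all measured genes they were 2.82%, 6.52% and 2.55%, so that higher, lower and measured genes held each motif at similar rates. A match describes these letters only. Mx1, C4b and Ccn2 were looked up and are named without a promoter.

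Genes of antigen presentation stood higher with the interferon group. The 29 genes found summed to 721, 798, 711 and 2126 scaled reads, and 4 of 6 measured members were higher and none lower. The second minimum gave 2 of 4 and none. B2m, the light chain shared by MHC class I molecules, had 184, 181, 323 and 834 scaled reads and was 2.55-fold higher (2.23 to 2.92). H2-D1, a class I heavy chain, had 103, 186, 32.5 and 146 and was 4.38-fold higher (2.98 to 6.80), although the En1+/- library exceeded the infused one. H2-D1 belongs to a family of similar genes whose reads can be hard to assign. Tapbp, which loads peptides onto class I molecules, was 11.9-fold higher (6.34 to 27.8), and Psmb8, of the immunoproteasome, had only 0 and 7 reads.

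Secreted signals were uneven. Ccl9, a chemokine gene of macrophages and microglia, had 8.01, 7.95, 20.6 and 715 scaled reads and was 33.5-fold higher, with a log2 ratio of 5.07 (4.45 to 5.84). It alone gave more than the rest of the 35 chemokine and receptor genes, which summed to 635 on the contralateral and 1387 on the infused side with Ccl9 included. Cxcl12 was higher at 1.48 (0.93 to 2.08), or 0.64 with all transcripts summed, and Cxcl14 was lower at -1.96 (-2.72 to -1.31). The second minimum gave none of 2 chemokine genes higher and 1 lower. Among cytokine and receptor genes 4 of 11 measured members were higher and 2 lower, and 2 and 3 of 11 by the second minimum. Their sums were 2109 on the contralateral and 2286 on the infused side. The receptor genes Tgfbr2 (3.97, 3.18 to 4.99) and Il6ra (2.90, 2.19 to 3.78) were higher, and Cntfr (-2.05, -2.76 to -1.44) and Il1rap (-1.28, -1.66 to -0.92) were lower. Il1rap fell under the rule at -0.86 with library totals. The interleukin gene Il1b had 0, 0, 0 and 30 reads, under the minimum. In the NF-kappaB and Toll-like receptor list none of 7 measured members was higher, and Irak1 (-1.19, -1.75 to -0.68) and Ikbkb (-1.53, -2.01 to -1.08) were lower. Irak1 fell under the rule at -0.78 with library totals, and Ikbkb at -0.44 with all transcripts summed. Summed transcripts gave 3 of 11 members higher and 2 lower. With the second minimum, 1 of 6 was higher and 2 were lower.

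Genes of blood leukocytes had few reads in these libraries. The 31 genes of neutrophils and lymphocytes summed to 38.7, 251, 69.3 and 202 scaled reads, and the neutrophil genes S100a8, S100a9, Ly6g and Mpo and the B cell gene Cd79a had 0 on the infused side. Ighm, an immunoglobulin heavy chain gene, had 9.34, 240.0, 46.6 and 147 scaled reads and made up most of that sum, and the En1+/- library exceeded the infused one. The T cell genes Cd3e, Cd8b1 and Lck had 8, 23 and 13 reads on the infused and 0 on the contralateral side, while Cd4, Cd8a and Trac had 0 on the infused side. The endothelial and mural list had similar sums on both sides, 2679 and 2671 scaled reads. Of its 9 measured members 2 were higher and 1 was lower, with a median log2 ratio of -0.398. By the second minimum 5 of 13 were higher and 1 was lower, with a median of 0.575. Vcam1, an adhesion molecule that leukocytes bind, had 64.1, 117, 72.6 and 224 scaled reads and was higher at 1.60 (1.21 to 2.02). In the list of extracellular matrix and scar genes 3 of 16 (18.8%, near the 16.5% of all) were higher and none lower: the fibronectin gene Fn1 (2.14, 1.49 to 2.89), the basement membrane collagen gene Col4a1 (2.14, 1.53 to 2.84) and Ccn2. The sums of that list were 14291 and 14113 scaled reads, and the second minimum gave 3 of 17 higher and none lower.

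**Figure D3:**
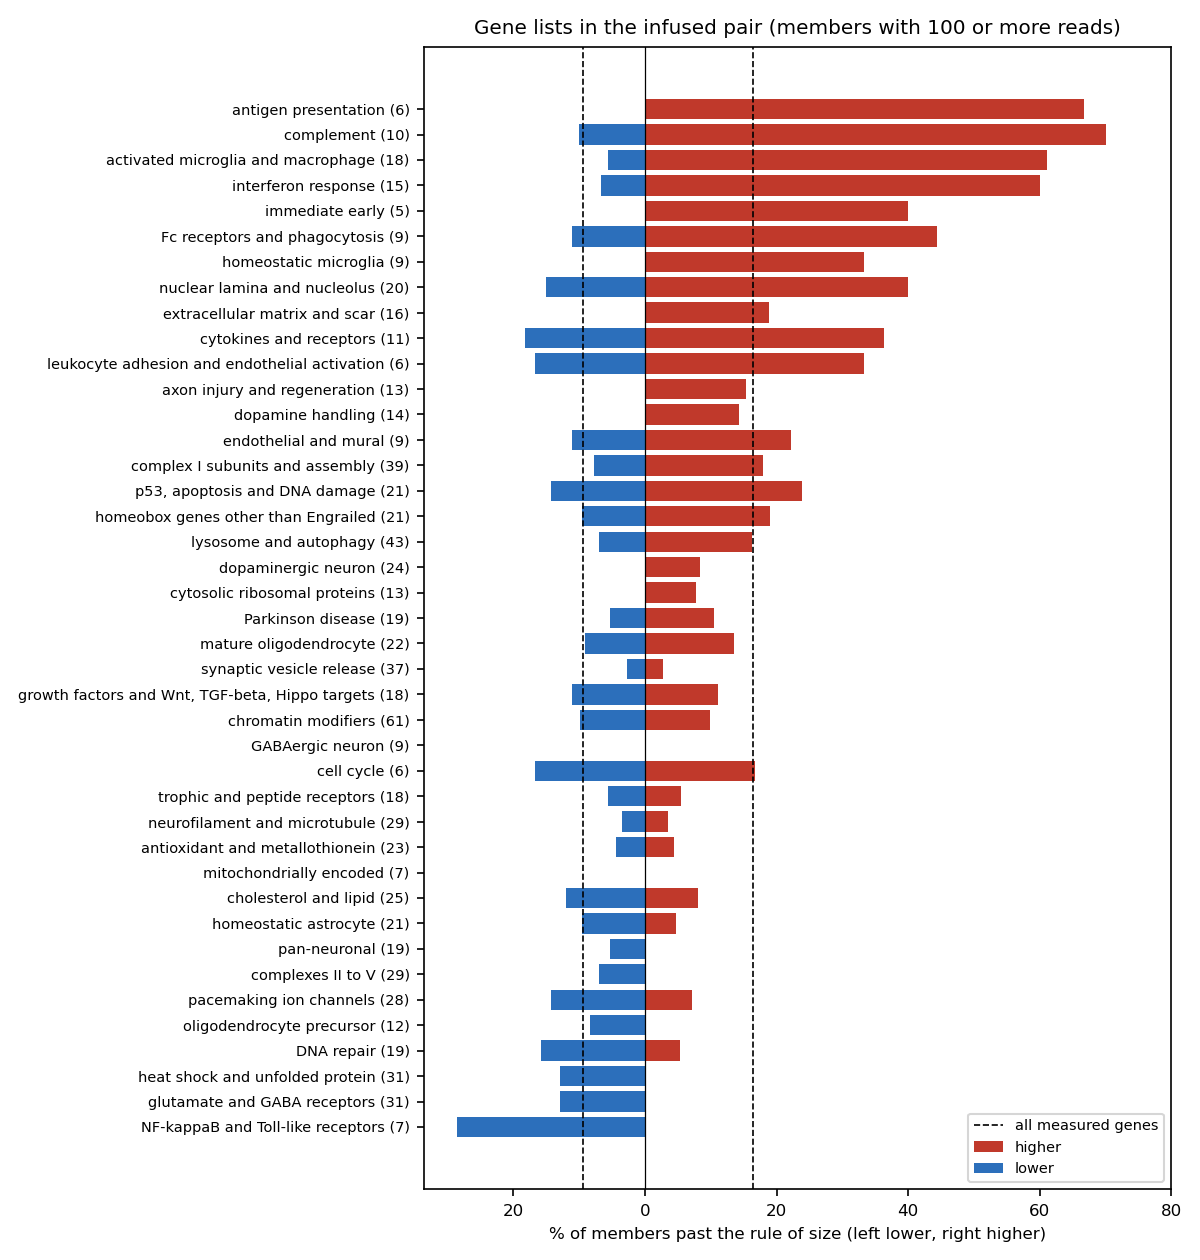
Share of members past the rule of size for each gene list with 5 or more members of 100 or more reads, higher to the right in red and lower to the left in blue (x axis, percent of those members, whose number stands in parentheses). Dashed lines mark the shares over all measured genes, 16.5% higher and 9.35% lower. Antigen presentation, complement, activated microglia and interferon lists lie far to the right of the dashed line, and glutamate and GABA receptors and heat shock and unfolded protein are among the lists with lower members only.

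Among genes that define dopaminergic neurons, 2 of 24 measured members of the list were higher and none lower (8.33% against 16.5% of all measured genes), with a median log2 ratio of 0.29. By the second minimum 2 of 24 were higher and none lower. With library totals as the scale, which raises most genes, 7 of 24 were higher and none lower and the median was 0.71, beside 0.53 over all measured genes. Ddc (chr11:11814101-11898144, minus strand), the enzyme that makes dopamine from L-DOPA, had 757, 668, 879.7 and 2110 scaled reads and was 2.37-fold higher (2.19 to 2.57). Ntsr1, a neurotensin receptor gene, had 275, 312, 324 and 721 scaled reads and was 2.20-fold higher (1.92 to 2.52). In both genes the other 3 libraries lay close together and the infused library lay apart. With all transcripts of the gene summed, Ntsr1 fell under the rule at 0.74.

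The remaining dopaminergic genes lay between -0.55 and 0.93 on the log2 scale. Among transcription factors that specify these neurons, Lmx1b stood at 0.93 (0.54 to 1.33), Nr4a2 at 0.39 (0.17 to 0.62), Foxa1 at -0.34 (-0.75 to 0.07) and Sox6, which marks SNpc neurons, at -0.55 (-0.87 to -0.24). The autoreceptor gene Drd2 stood at 0.41 (0.26 to 0.57), the vesicular transporter gene Slc18a2 at 0.11 (0.05 to 0.17) and the retinal dehydrogenase gene Aldh1a1 at -0.02 (-0.08 to 0.05). The nicotinic receptor genes differed in direction, with Chrnb3 at 0.66 (0.49 to 0.84) and Chrna6 at -0.41 (-0.56 to -0.26). Ret, the signalling receptor for GDNF, stood at 0.32 (0.23 to 0.41), and Gfra1, its co-receptor, at -0.43 (-0.59 to -0.27). Pitx3, Otx2, Foxa2, Lmx1a and En2 were under the minimum, with 5 and 15, 10 and 3, 16 and 6, 34 and 32, and 62 and 31 reads, and Vip had 1 and 0.

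**Figure D4:**
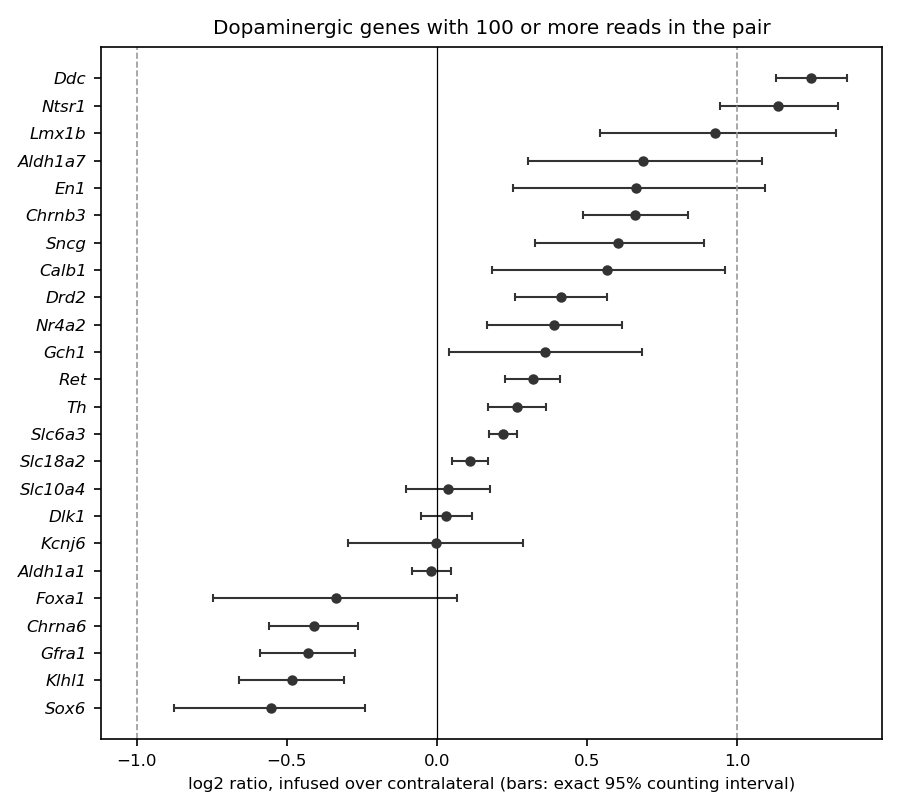
Log2 ratio of infused over contralateral scaled reads (x axis) for the 24 dopaminergic genes with 100 or more reads in the pair, with exact 95% counting intervals as bars. Dashed lines mark -1 and 1. Ddc and Ntsr1 lie beyond 1 and the other 22 genes lie between the dashed lines.

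Genes that handle dopamine and its cofactor were measured too. Of 14 measured members of that list 2 were higher (14.3%, against 16.5% of all measured genes) and none lower. Their log2 ratios ran from -0.85 to 1.69, with a median of 0.24. The second minimum gave 2 of 15 higher and none lower. The members described next were all under the rule. Maoa, the monoamine oxidase A gene, had 123, 131, 121 and 231.5 scaled reads and a log2 ratio of 0.91 (0.59 to 1.25), under the rule, with the infused library the highest. Maob stood at -0.01 (-0.72 to 0.72). For the cofactor of tyrosine hydroxylase, Gch1, the first enzyme of its synthesis, stood at 0.36 (0.04 to 0.68), and Qdpr, which recycles it, at -0.04 (-0.16 to 0.09).

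Of the receptors for glutamate and GABA few had more reads on the infused side, but the share lower by the rule was near that of all genes. Of 37 such genes 8 (21.6%) had more scaled reads there, against 46.5% of all genes with a read. The sums were 10606, 11875, 12172 and 9862, so that the infused library was the lowest of the 4. No member of 31 was higher by the rule and 4 (12.9%, against 9.35% of all) were lower, with a median of -0.37. The second minimum gave 5 of 34 lower and none higher. Grm5, a metabotropic glutamate receptor gene, had 278, 264.5, 419 and 199 scaled reads and a log2 ratio of -1.09 (-1.34 to -0.84). Gria3, an AMPA receptor subunit, had 248, 652, 366 and 160.5 and a log2 ratio of -1.20 (-1.48 to -0.93). With library totals as the scale both genes fell under the rule, at -0.67 for Grm5 and -0.78 for Gria3. Gabra4, a GABA-A receptor subunit, had 177.5, 213, 253.5 and 94.4 and a log2 ratio of -1.44 (-1.80 to -1.10). Grin2c, an NMDA receptor subunit, had 73.4, 21.2, 103 and 17.5 and a log2 ratio of -2.54 (-3.39 to -1.84), with En1+/- close to the infused library.

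Other subunits of these families were nearer to 0. Gria2 stood at -0.46 (-0.59 to -0.33) and Grin1, the obligatory NMDA receptor subunit, at 0.05 (-0.14 to 0.23). These ratios are relative to the bulk of genes. With library totals as the scale, of which mt-Rnr1 and mt-Rnr2 make up most, the median of all measured genes went from 0.11 to 0.53 and that of the receptor list to 0.05, with 3 members higher and 2 lower.

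Among ion channels used in pacemaking, 4 of 28 measured members were lower (14.3%, against 9.35% of all) and 2 higher (7.14%, against 16.5%). With library totals as the scale 2 were lower and 4 higher. The list summed to 7183, 7390, 8216 and 7875 scaled reads. By the second minimum 4 of 25 were lower and 1 was higher. Kcnn3 (chr3:89520164-89675132, plus strand) encodes SK3, the calcium-activated potassium channel that steadies firing of SNpc neurons. It had 143, 195, 250.3 and 34.1 scaled reads and a log2 ratio of -2.88 (-3.45 to -2.38), with the infused library far below the other 3. Kcnn2, which encodes the related SK2, had 164, 149, 83.4 and 181 scaled reads and was 2.14-fold higher (1.64 to 2.83), and here it was the contralateral library that stood apart. Kcnip4, a partner of A-type potassium channels, stood at -1.76 (-2.15 to -1.39), with 105.5, 67.0, 255 and 75.9 scaled reads. For Kcnip4 too the contralateral library was the one apart, above the others.

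Further channel genes had the infused library lowest. Nalcn, the sodium leak channel, had 359, 449, 454 and 210.1 scaled reads and a log2 ratio of -1.13 (-1.37 to -0.89). Cacna2d1, an accessory subunit of calcium channels, had 220.3, 144, 179 and 79.8 and a log2 ratio of -1.18 (-1.58 to -0.79). Both fell under the rule when reads were scaled by library totals, at -0.71 for Nalcn and -0.76 for Cacna2d1. The pore gene Cacna1d, of the calcium channel tied to pacemaking, stood at 0.24 (-0.10 to 0.59), Kcnd3 at 0.55 (0.45 to 0.65) and Hcn2 at -0.04 (-0.61 to 0.53).

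General neuronal genes were close to even. The pan-neuronal list summed to 36872, 44337, 35111 and 36227 scaled reads, and 1 of 19 measured members was lower and none higher, by either minimum. That gene was Nefm, of the medium neurofilament, with 939.8, 887, 604.5 and 247 scaled reads and a log2 ratio of -1.31 (-1.53 to -1.09), the lowest in the infused library. Nefm fell under the rule at -0.89 with library totals as the scale. Map1b, a microtubule-associated protein gene, had a log2 ratio of -0.00 (-0.04 to 0.04) from 10764 and 12115 reads. In synaptic vesicle release 1 of 37 measured genes was higher and 1 lower, and 2 of 41 each way by the second minimum. The lower one was Unc13a, which primes vesicles, at -1.57 (-1.86 to -1.30) with 278, 396, 430.1 and 146 scaled reads. None of 9 measured GABAergic genes passed the rule, and by the second minimum 2 of 11 were lower. Gad2 stood at -0.91 (-1.05 to -0.78) and Gad1 at 0.03 (-0.12 to 0.18). Among receptors for trophic factors, Ntrk3, the receptor for neurotrophin 3, was lower at -1.80 (-2.31 to -1.32).

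Activity and injury genes gave a mixed picture. The immediate early gene Nr4a1 had 2, 1, 1 and 116 reads, a linear ratio of 70.3 (18.1 to 4100.3), whereas Egr1, another gene of this class, had 46, 123, 74 and 1 reads, under the minimum, and a log2 ratio of -5.78 (-11.70 to -3.86). Of 5 measured immediate early genes 2 were higher and none lower, but by the second minimum none of 5 was higher and 2 were lower. In the injury and regeneration list 2 of 13 measured members were higher and none lower, and 3 of 14 and none by the second minimum. Rgs4, which limits signalling by G proteins, was 3.01-fold higher (2.44 to 3.76), and Stat3 was the other. Atf3, a marker of injured neurons, had 0 reads in all 4 captured libraries, and Gap43, the growth cone gene, stood at 0.42 (0.28 to 0.55).

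Of 47 chaperone and unfolded protein genes with a read 10 (21.3%) had more scaled reads on the infused side, against 46.5% of all genes with a read. By the rule none of 31 measured members was higher and 4 were lower (12.9%, near the 9.35% of all). Their sums were 15846, 14949.9, 13532 and 12466 scaled reads. The second minimum gave 4 of 30 lower and none higher. Atf6 (chr1:170704674-170867771, minus strand), a membrane-bound sensor of unfolded protein in the endoplasmic reticulum, had 180.2, 127, 388 and 50.6 scaled reads and a log2 ratio of -2.94 (-3.40 to -2.53). The infused library was the lowest and the contralateral one the highest of the 4. Pdia6, a disulfide isomerase of the same compartment, had 176, 131, 88.8 and 31.1 and a log2 ratio of -1.51 (-2.17 to -0.92). Hspa5, the main chaperone there, had 1067, 1113, 485 and 316 and stood at -0.63 (-0.85 to -0.43). For Hspa5 both sides of the infused mice lay below the other captured libraries. The list's median of -0.33 turned to 0.09 with scaling by library totals, with 2 members higher and 2 lower.

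Mitochondrial genes did not differ in one direction. In complex I of the respiratory chain 7 of 39 measured genes of subunits and assembly factors were higher (17.9%, against 16.5% of all) and 3 lower, with a median of 0.06, and 4 of 40 each way by the second minimum. The list summed to 6307 on the contralateral and 6472 on the infused side. Ndufa12 (1.88, 1.32 to 2.51), Ndufs6 (1.25, 0.82 to 1.70) and Ndufa1 (1.43, 1.07 to 1.81), all subunits, were higher, and the subunit Ndufc2 (-1.15, -1.46 to -0.85) and the assembly factor Ndufaf7 (-1.49, -2.05 to -0.98) were lower. Of 2 subunits whose translation Engrailed is known to promote, Ndufs1 stood at -0.16 (-0.46 to 0.14), and Ndufs3 had 1 and 23 reads, under the minimum. In complexes II to V none of 29 was higher and Cyc1 and Atp5c1 were lower, and by the second minimum 1 of 35 was higher and 2 lower. With library totals Ndufc2, Cyc1 and Atp5c1 fell under the rule, at -0.73, -0.95 and -0.66. Of 7 measured genes encoded in mitochondrial DNA none passed the rule, and their median was -0.37, or 0.05 with scaling by library totals.

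Lysosome and autophagy genes included 7 higher (16.3%) and 3 lower (6.98%) of 43 measured, shares near those of all genes, and 7 and 4 of 46 by the second minimum. They summed to 16409.9 and 20107 scaled reads on the contralateral and infused side. The proteases Ctsa (1.30, 1.04 to 1.57), Ctsd (1.02, 0.92 to 1.13) and Ctss (1.65, 1.27 to 2.07), the galactosidase Glb1 (2.03, 1.48 to 2.65) and the proton pump subunit Atp6v0d1 (1.24, 1.06 to 1.42) were higher. Ctsd fell under the rule at 0.94 with totals outside mitochondrial and ribosomal RNA genes. Of 19 measured Parkinson disease genes 2 were higher and 1 was lower, and 1 each way of 19 by the second minimum. The higher ones were the phospholipase gene Pla2g6 at 2.29 (1.74 to 2.92) and Gak at 1.04 (0.70 to 1.40), and Gak fell under the rule at 0.95 with all transcripts summed.

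Cell death, chromatin and nuclear genes held members in both directions. Of p53 and apoptosis genes, 5 of 21 measured stood higher and 3 stood lower, and 4 and 5 of 23 by the second minimum. Casp8, a caspase that starts cell death from surface receptors, stood at 5.08 (3.71 to 7.58) from 3 contralateral and 132 infused reads, and Pmaip1, a BH3-only gene that p53 induces, at 0 and 107 reads. Bcl2, which protects from apoptosis, was lower at -1.88 (-2.35 to -1.46). Among chromatin modifiers 6 of 61 were higher and 6 lower, and 6 and 10 of 65 by the second minimum. Dnmt3a, which methylates DNA, had 183, 235, 127 and 481 scaled reads and was higher at 1.90 (1.61 to 2.21), as was Tet3, which oxidises methylcytosine, at 1.49 (1.19 to 1.81). The acetyltransferase gene Ep300 (-1.41, -1.85 to -1.01) and the deacetylase gene Hdac5 (-1.56, -1.99 to -1.16) were lower. Ep300 fell just under the rule at -0.996 with library totals. Hdac5 did so at -0.999 when the transcript with most reads over the pair was taken.

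Over all genes, the leading genes in each direction were those whose interval, at its end nearest 0, lay farthest from 0, leaving out genes without a proper symbol. In all 20 leading higher genes the infused library was above the other 3, against 87.3% of all genes higher by the rule. The choice of these genes fixed its place above the contralateral library. The minimum of reads also favours this order, so it describes the selection. Tmem121 (chr12:113185930-113189523, plus strand), which encodes a membrane protein, had 4, 0, 0 and 258 reads, which is at least 61.6-fold higher by the lower end of its interval and 76.3-fold over a floor of 3 contralateral reads. Six4 (chr12:73099609-73113456, minus strand), a homeobox gene of development, had 0, 18, 0 and 164 reads, at least 39.0-fold in the same way. Ccn2 (chr10:24595442-24598683, plus strand), a matrix signalling gene that TGF-beta and YAP induce, had 5, 70, 0 and 154 reads, at least 36.6-fold. Its exons overlap those of Gm15270 on the other strand.

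Other leading higher genes had a few contralateral reads. Rarb, a retinoic acid receptor gene whose exons overlap Top2b on the other strand, had 30, 86, 1 and 211 reads, for a log2 ratio of 7.00 (5.05 to 12.86). Cybrd1, a ferric reductase that takes part in iron uptake, had 13, 20, 4 and 303 reads, for a log2 ratio of 5.91 (4.70 to 7.96). Gjb2, the connexin 26 gene, had 16, 55, 5 and 238 reads, for a log2 ratio of 5.27 (4.16 to 7.04). Upp1, a uridine phosphorylase gene, had 1, 0, 0 and 119 reads, at least 28.2-fold higher. Ido2, a tryptophan-degrading enzyme gene, had 11, 0, 1 and 145, and the centriole gene Stil had 0, 4, 0 and 125.

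In 17 of the 20 leading lower genes the infused library was below the other 3, against 76.8% of all genes lower by the rule. Here too the choice of genes fixed its place against the contralateral library. Srrm4os had 9, 5, 199 and 0 reads, so that the contralateral library was the one apart. This noncoding gene lies antisense to Srrm4, and whether counting used strand is not stated. Pex6, a peroxisome gene, had 39, 66, 98 and 3 reads, for a log2 ratio of -4.97 (-7.50 to -3.61), and Stx6, a SNARE gene of the Golgi, had 23, 104, 111 and 4 and a log2 ratio of -4.79 (-6.87 to -3.57). Slitrk3, which organises inhibitory synapses, had 243, 306, 261 and 35 reads, for a log2 ratio of -3.05 (-3.62 to -2.56), and Stim2, a calcium sensor of the endoplasmic reticulum, had 112, 103, 98 and 9 and a log2 ratio of -3.54 (-4.79 to -2.63). In scaled reads Slitrk3 had 324, 203, 283 and 34.1, and Stim2 had 149.5, 68.3, 106 and 8.76. For these last 2 genes the infused library was far below the other 3, which differed among themselves. Exon bases were shared with another annotated gene in 5 of the leading higher and 6 of the leading lower genes. Whether reads of genes that overlap on opposite strands were told apart is not stated.

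The authors' deposited table, made without replicates, lists 46 transcripts higher and 2 lower on the infused side at an adjusted p-value under 0.05, of 64068. These belong to 26 genes with an identifier, besides 9 transcripts without one. By the rule used here 24 of the 26 genes were higher and 2 lower, Srrm4os and the mitochondrial tRNA gene mt-Tf. Glial and immune genes among them were Serpina3n, Gfap, Ccl9 and Cd74. The authors' deposited table gives Serpina3n a log2 fold change of 4.80 with an adjusted p-value of 2.87e-08 and Gfap one of 2.67 with 0.0166, from DESeq. Others were Lpcat3, a phospholipid acyltransferase gene with 57.4 and 448 scaled reads on the contralateral and infused side, Taf11, of the general transcription factor TFIID, with 43.3 and 515, and Hikeshi, which carries Hsp70 into the nucleus under heat, with 52.0 and 542.

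En2 also reached the nigra in the punched samples, by injection after 6-OHDA. That pair shares no library with the infused pair, but collection, lesion, delivery and counting (per gene) differ. The same rule found 511 of 13726 genes higher after 6-OHDA then En2 (3.72%) and 77 lower (0.561%). Of 6987 genes measured in both pairs 63 were higher in the punches (0.902%), and 35 of those 63 (55.6%) were also higher on the infused side, against 1121 of 6987 (16.0%). The 35 shared genes are 3.12% of the 1121. By the minimum the pair does not set, 19 of 51 (37.3%) were higher on the infused side against 12.2%. With no minimum in the captured pair, 233 of 391 genes higher in the punches (59.6%) had more scaled reads on the infused side, against 46.5% of all genes with a read.

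Of the 35 shared genes 8 belong to the interferon list, which has 15 of the 6987 genes measured in both pairs. In the punches 57 of the 63 measured members of that list were higher. A member higher on the infused side was therefore likely to be shared. Mx1 had 52 and 2179 reads in the punches, a log2 ratio of 5.14 (4.76 to 5.58) beside 4.99 in the captured pair. Gbp7 had 232 and 3416, for a log2 ratio of 3.64 (3.45 to 3.84) beside 3.27. Irgm1 had 686 and 8163, for a log2 ratio of 3.34 (3.23 to 3.45) beside 4.81. Irf9, Oasl2 and Parp12, and H2-D1 and Tapbp of the antigen presentation list, were shared as well, with punched log2 ratios of 2.17, 3.71, 2.15, 2.46 and 1.47. From the astrocyte lists, Serpina3n stood at 1.21 (1.14 to 1.28) in the punches, Osmr at 1.79 (1.67 to 1.92), Stat3 at 1.07 (0.99 to 1.15) and Sox9 at 1.01 (0.89 to 1.13). Nr4a1, Gjb2, Vcam1 and the metallothionein gene Mt1 were also higher in both pairs. Gfap, 6.24-fold higher in the captured pair, had a log2 ratio of 0.76 in the punches, under the rule.

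**Figure D5:**
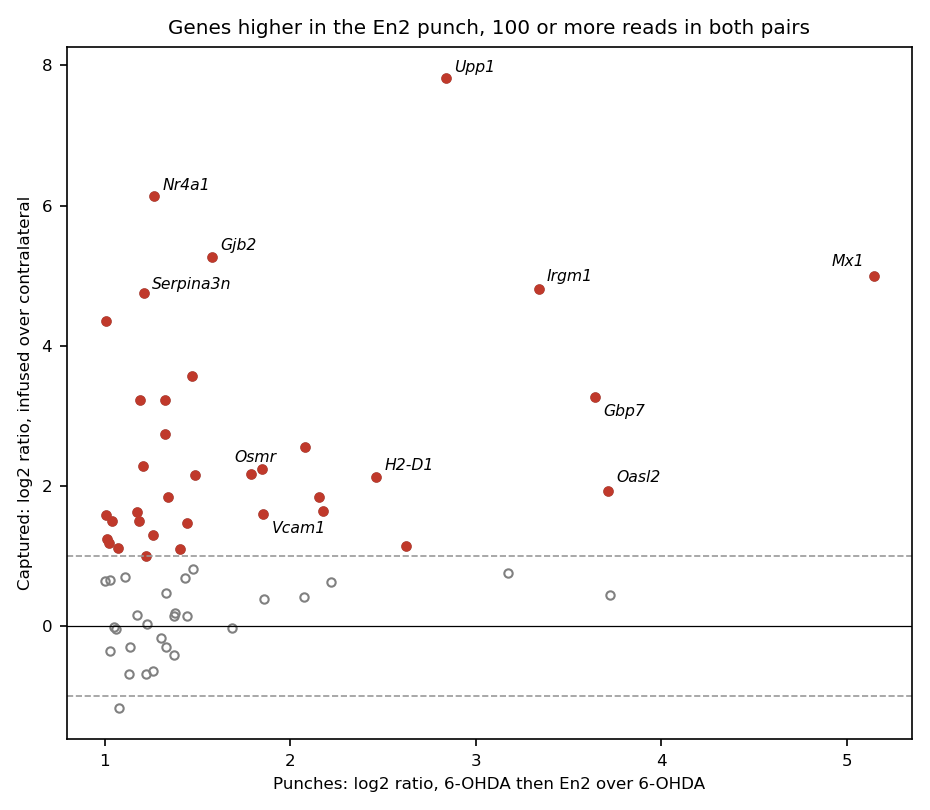
Log2 ratios of the 63 genes higher in the punches after 6-OHDA then En2 and measured in both pairs: punched pair on the x axis, captured infused over contralateral on the y axis. Filled red points are the 35 genes also higher on the infused side, open points the others, and dashed lines mark -1 and 1. Mx1, Irgm1 and Gbp7 lie above 3 on both axes, and 1 gene lies below -1 on the y axis.

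Some microglial genes differed in direction between the pairs and others did not. In the activated microglia list 8 of 39 were higher and 2 lower in the punches, beside 11 and 1 of 18 in the captured pair. C1qa was higher on the infused side at 1.91 and lower in the punches at -1.14 (-1.32 to -0.97), and Selplg stood at 3.09 and -1.37 (-1.77 to -0.99). The transporter gene Slco2b1 of microglia and endothelium stood at 1.08 and -1.43 (-1.82 to -1.06). These 3 genes were all of those higher on the infused side and lower in the punches. Of 14 homeostatic microglia genes measured in the punches 7 were lower and none higher, among them Tmem119 at -3.07, P2ry12 at -2.08 and Cx3cr1 at -2.63, whereas none of 9 was lower on the infused side. The difference between the pairs was not tested, since each side of each pair is 1 library. One gene went the other way, Tor1aip2 of the nuclear envelope, at -1.16 on the infused side and 1.08 (0.91 to 1.25) in the punches. Ramp2, a receptor partner in vessels, was lower in both, at -1.46 and -1.24.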

How the data were processed

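Total RNA was sequenced from 6 samples, 1 library per group. The authors deposited read counts per Ensembl transcript for the captured samples and counts per gene for the punches. Bowtie, HTSeq, DESeq 1.8.3 and mm10 are named in the submitters' processing notes, with no roles. The authors' deposited comparison table gives log2 fold changes and adjusted p-values made without replicates, and 6 columns of values per library in such tables were not used here. Not used were 9402 of 95533 captured transcripts that have no gene identifier, which hold 3.44% of contralateral and 4.67% of infused counts. Symbols for 33725 genes and positions come from a name table and GENCODE M21 (GRCm38).

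A read can count for several transcripts, so 1 transcript, the one with most reads over the 4 captured libraries, stood for each gene. Each pair was put on one scale by the median of ratios, 0.5 was added, and the log2 ratio was taken with an exact 95% Clopper-Pearson interval. A gene with 0 reads on one side was given by its interval's lower end or against a floor of 3 reads there. In the punched files a few counts that stand 1 column to the right were moved back. Members, the 48 gene lists (1668 genes) and tests were chosen with earlier results of these data known. Named genes were En1, En2, all dopaminergic and dopamine handling genes, of other lists members past the rule (up to 6 per direction) and up to 3 with most reads, 20 leading genes per direction, the authors' genes at an adjusted p-value under 0.05, and up to 10 genes per direction shared with the punches. Genes named outside that rule, such as Cd14, Itgb2, Egr1, Il1b and those at 0 reads, were chosen after their values were seen. Some genes that the rule names are not reported here. The second minimum of 100 reads was chosen after seeing the data.

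On simulated counts of the infused pair (35049 genes, 7290 measured, 200 changed), 100.0% of genes given a log2 change of 1.5 and of 3 passed the rule, no unchanged gene did, and intervals covered 95.7% of true ratios. The simulated libraries differ by counting error alone. As alternatives, the scale was set by library totals, totals outside mitochondrial and ribosomal RNA genes or edgeR's TMM factors, and other minimums, other choices of transcript, a pseudocount of 5 and a log2 ratio of 2 were tried. Tools were Python 3.11.15, numpy 2.4.6, scipy 1.17.1, pandas 2.3.3, matplotlib 3.10.9, R 4.3.3 and edgeR 4.0.16.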

Additional observations from a re-analysis of the deposited data

How the results depend on the processing

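With 1201 genes higher and 680 lower as reported (63.8% higher), totals outside mitochondrial and ribosomal RNA genes gave 1074 and 802 (57.2%), TMM factors 1170 and 707, a pseudocount of 5 gave 1144 and 632, and 20 reads in both libraries 1125 and 846. Library totals gave 2103 higher and 337 lower (86.2% higher). A minimum of 20 reads in 1 library gave 2354 and 1933 (54.9%), no minimum 2827 and 3099 (47.7%), 500 reads in the pair 146 and 41 (78.1%), and a log2 ratio of 2 gave 350 and 128. Summing all transcripts gave 1603 and 1162. The minimum of 100 reads in wild type and En1+/- together gave 949 and 1084, and 19 genes shared with the punches in place of 35 (library totals gave 37). Summing transcripts turned 2 named genes: Tmpo to -0.61 from 2.15 and Tmem126b to 0.38 from -1.23. The cause of these differences was not tested. Of 199 named genes past the rule, 165 stayed past it under library totals, 188 with totals outside mitochondrial and ribosomal RNA genes, 195 with TMM factors, 179 with summed transcripts, and 22 with 500 reads. No paired analysis was possible because each group holds 1 library, and leaving out a library leaves no comparison. Depth limits genes under 100 reads, among them most cytokine, chemokine and interferon genes, whose differences were not detectable or rest on few reads.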

Other observations

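Genes of mitochondrial ribosomal proteins, nuclear genes whose products translate the transcripts of mitochondrial DNA, held 11 higher and 2 lower of 41 measured members (26.8% and 4.88%, against 16.5% and 9.35% of all measured genes), with a median log2 ratio of 0.58. One of the 11 is the pseudogene Mrpl48-ps, whose reads may be shared with Mrpl48. Mrpl48 had 23.8 and 122.6 scaled reads on the contralateral and infused side and a log2 ratio of 2.32 (1.68 to 3.07), Mrpl15 had 27.1 and 124.5 and a ratio of 2.16 (1.56 to 2.86), and Mrps7 had 70.4 and 182 and a ratio of 1.35 (0.94 to 1.78). Mrpl10 (-1.77, -2.29 to -1.29) and Mrpl57 (-1.85, -2.48 to -1.29) were the lower members. Proteasome subunits held 3 higher and none lower of 28.

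Genes whose symbols begin with Kcn, potassium channels and their partners, held 3 higher and 8 lower of 34 measured, with a median of -0.26. Their shares were 8.82% and 23.5%, against 16.5% and 9.35% of all measured genes. Besides those of the pacemaking list, lower ones included Kcnt1, a sodium-activated channel gene, at -2.03 (-2.45 to -1.65) with 273 and 67.1 scaled reads. Others were Kcnh7 at -1.44 (-2.02 to -0.91), Kcnip3 at -1.32 (-1.60 to -1.04), and Kcnb2, whose separate gene identifiers each count among the 8. Kcnh1 was higher at 3.37 (2.68 to 4.25), with 17.3 and 187 scaled reads. Zinc finger genes named Zfp held 18 higher (15.8%) and 20 lower (17.5%) of 114. These families were formed from gene symbols after other results of these data were known. They, and the mitochondrial ribosomal and proteasome families, were counted by the pair's own minimum and the main scale alone.

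Nucleolar genes went in opposite directions within the list of nuclear lamina and nucleolus genes. Of its 20 measured members 8 were higher and 3 lower, with a median log2 ratio of 0.59. The second minimum gave 6 and 3 of 16. With all transcripts summed 7 were higher and 6 lower of 25, and the median was 0.009. Nop56 (1.54, 1.09 to 2.02), Gnl3 (1.66, 1.17 to 2.19) and Rrn3 (1.12), genes of ribosomal RNA processing and transcription, were higher, whereas Polr1a, the large subunit of RNA polymerase I, was lower at -2.19 (-2.77 to -1.67) with 30, 63, 147 and 36 reads, and Nolc1 at -3.63 (-4.87 to -2.72). For Polr1a the contralateral library was the one apart. In cholesterol synthesis Lss (-1.72, -2.29 to -1.20) was lower, and Srebf1, a transcription factor of lipid synthesis, was higher at 1.00 (0.75 to 1.27), or 0.92 with totals outside mitochondrial and ribosomal RNA genes.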
